A study of Bos taurus with 6 samples.

Results

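The genes of 10 antioxidant proteins were examined in the longissimus dorsi, the long muscle of the back, of Shandong black cattle and Luxi cattle. They were chosen by name as the 3 superoxide dismutases SOD1, SOD2 and SOD3, catalase (CAT), the glutathione peroxidases GPX1, GPX3 and GPX4, the peroxiredoxins PRDX1 and PRDX6, and TXNIP, which binds thioredoxin. All 10 were found among the 18010 genes of the files, and all 10 were among the 9781 genes tested. RNA-Seq was performed on 3 Shandong black cattle and 3 Luxi cattle, all 18 months old, with 1 library of muscle RNA per animal. The Luxi breed is a local yellow one, and the Shandong black breed descends from it together with Japanese and Bohai black stock. No treatment was given, and the comparison of the breeds addressed how the same muscle differs between a black beef breed and a local breed.

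Muscle fibres make superoxide in their mitochondria and at their membranes. Superoxide dismutases turn it into hydrogen peroxide, and catalase, the glutathione peroxidases and the peroxiredoxins then remove the peroxide. Glutathione peroxidases draw on glutathione and peroxiredoxins mostly on thioredoxin, and both of these are kept reduced by NADPH. Glutathione peroxidases such as GPX1, GPX3 and GPX4 carry selenium in their active site. TXNIP is not an enzyme. It binds reduced thioredoxin, belongs to the alpha-arrestins and restrains the uptake of glucose, and its gene is switched on by glucose through the factor MondoA, encoded by MLXIP.

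The values are FPKM, fragments per kilobase scaled to the library, summed over the transcripts of a gene, so that levels can be compared between genes. The ratio of coverage to FPKM gave 14.1 to 14.6 gigabases of aligned sequence in the Shandong black libraries and 17.5 to 17.99 gigabases in the Luxi libraries. The marker genes of skeletal muscle fibres were high in all 6 animals, with a summed FPKM of at least 16893, which goes with the labelled tissue. The library of Luxi animal 1 stood apart. Its log2 values correlated with those of the other Luxi animals at 0.875 and 0.891, against 0.947 between Luxi animals 2 and 3, and its FPKM summed to 297351, against 331764 to 421765 in the other libraries. XIST, the RNA that coats the inactive X chromosome of females and named here after its values were seen, had an FPKM of 10.7, 4.83 and 14.0 in Shandong black animals and of 0, 0 and 0.207 in the Luxi animals. The labels do not give the sex of the animals, and the animals of the breeds came from different suppliers. Breed, sex and source cannot be told apart in any difference below. The median difference of all genes tested was 0.13 on the log2 scale in favour of Luxi cattle, and it was 0.01 once the libraries were divided by size factors.

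TXNIP had the highest FPKM of the 10 genes in both breeds, and SOD3 had the lowest. The remaining genes of the Shandong black animals followed in the order CAT, GPX1, PRDX1, PRDX6, SOD2, GPX3, SOD1 and GPX4 by their mean FPKM. From CAT to SOD1 each gene of that order overlapped the next in range over the 3 animals, whereas TXNIP lay above CAT, and SOD1 above GPX4 and GPX4 above SOD3, without overlap. In Luxi cattle the order was TXNIP, GPX1, PRDX6, SOD2, PRDX1, CAT, SOD1, GPX4, GPX3 and SOD3, with overlap between neighbours from GPX1 to CAT and from SOD1 to GPX3. CAT thus stood at rank 2 in Shandong black cattle and at rank 6 in Luxi cattle, where it overlapped PRDX1 and lay just above SOD1. SOD3 aside, the mean FPKM of each gene over the 6 animals exceeded that of at least 88.8% of the genes tested.

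**Figure D1:**
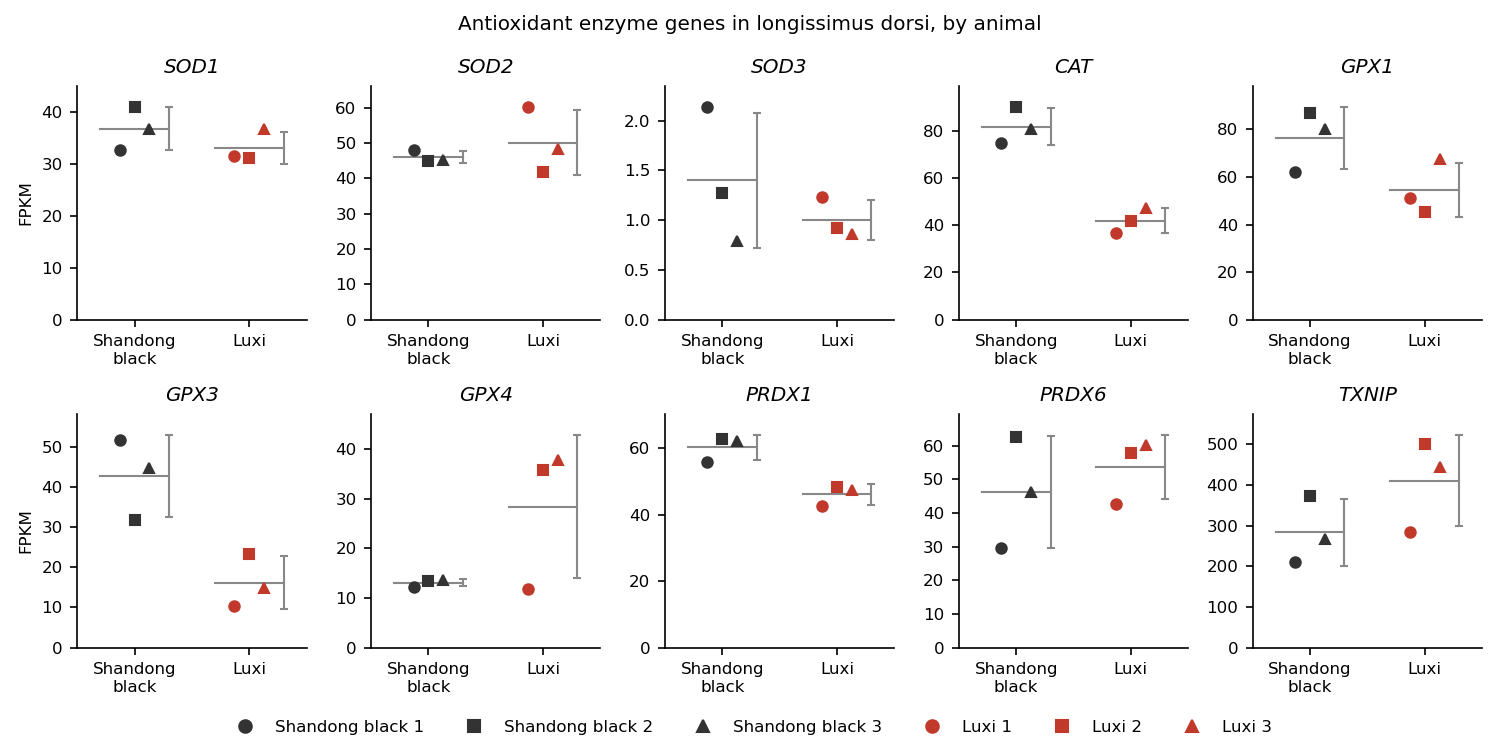
FPKM (y axis, from 0) of the 10 antioxidant genes in the 3 Shandong black cattle and the 3 Luxi cattle (x axis), with 1 symbol per animal, a grey line at the mean and a bar of 1 SD. The Luxi animals lay below the Shandong black animals for CAT, GPX3 and PRDX1, and for GPX4 Luxi animals 2 and 3 lay above all others while Luxi animal 1 did not.

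No member was called different between the breeds, where a call by limma asks for both an adjusted p-value below 0.05 and a log2 difference of 1 or more in size. Of all 9781 genes tested, 251 (2.57%) were called, 151 of them higher in Luxi cattle, and with size factors 115 of 264 were higher. At an unadjusted p-value under 0.05 stood 2 members, CAT and GPX3, against 21.8% of all genes. Without overlap between the breeds were 3 of the 10 members, namely CAT, GPX3 and PRDX1, each with the Luxi animals lower. Among all genes tested the breeds did not overlap for 29.1%, and for 9.13% with the Luxi animals lower. The median log2 difference of the 10 members was -0.19, with 6 members at negative and 4 at positive values, beside 0.13 for all genes. The p-values depend on how the libraries are scaled. With TPM, size factors or quantile normalization, 2 members were called each time, CAT and GPX3, when 2.13%, 2.71% and 2.94% of all genes were called. An exact two-sided permutation test with 3 against 3 animals cannot give a p-value below 0.1, the value it gave for CAT, GPX3 and PRDX1.

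**Figure D2:**
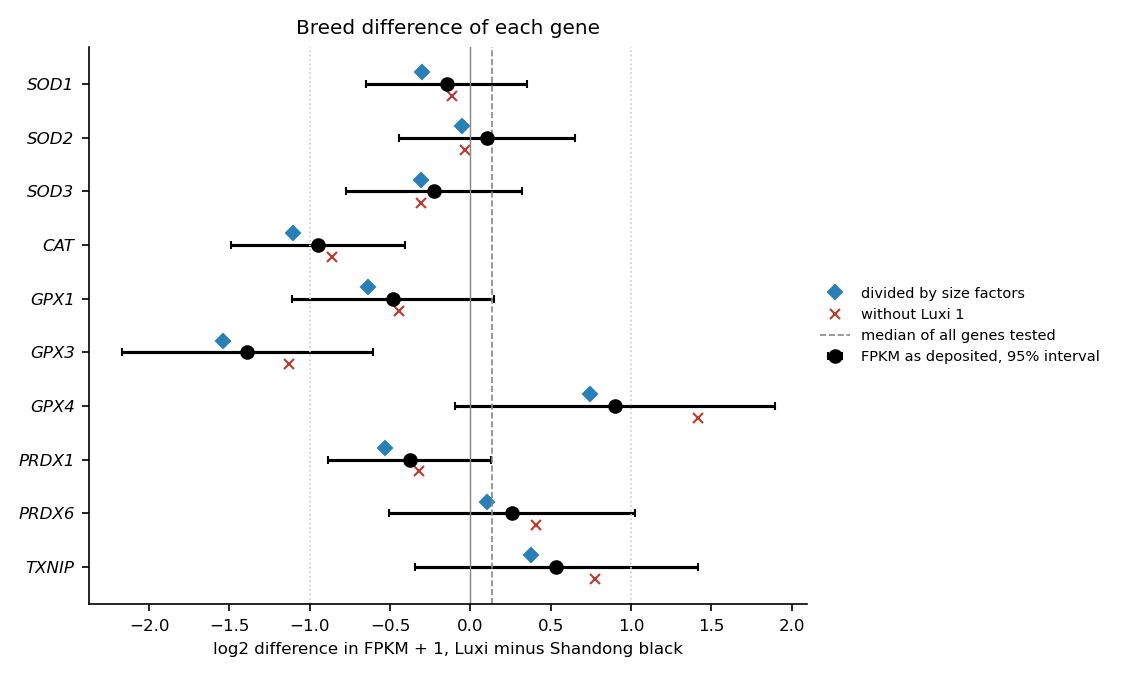
Difference between the breeds for each gene on the log2(FPKM + 1) scale (x axis, Luxi minus Shandong black), from the deposited FPKM with the 95% interval of limma (black), after division by size factors (blue) and without Luxi animal 1 (red cross). The dashed line is the median of all genes tested and the dotted lines are at -1 and 1. The intervals of CAT and GPX3 lay below 0, and those of the other 8 genes included 0.

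SOD1, the copper and zinc enzyme of the cytosol, had an FPKM of 32.8, 41.0 and 36.8 in Shandong black animals and of 31.6, 31.1 and 36.8 in the Luxi animals. The breeds overlapped, and the log2 difference was -0.15 ± 0.21 (SE, n = 3 animals per breed, adjusted p = 0.724 with limma), with a 95% interval from -0.65 to 0.35. Divided by size factors it was -0.30 (adjusted p = 0.438 in a range of 0.438 to 0.899 over 15 alternatives), and the Luxi animals then lay below the Shandong black animals without overlap. SOD2, the manganese enzyme of mitochondria, stood at 48.0, 45.0 and 45.4 in Shandong black cattle and at 60.2, 41.9 and 48.4 in Luxi cattle. The highest and the lowest value both came from Luxi animals. The log2 difference of SOD2 was 0.10 ± 0.23 (SE, adjusted p = 0.826), with an interval from -0.44 to 0.65, and it had the opposite sign with each of the other 3 scalings. The mitochondrial markers CS, COX4I1, ATP5F1B, UQCRC1 and NDUFS1 summed to 631 to 806 in Shandong black cattle and to 714 to 834 in Luxi cattle, and none of the 5 was called.

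SOD3, the superoxide dismutase that is secreted into the space between cells, was barely expressed. Its FPKM was 2.13, 1.27 and 0.793 in Shandong black animals and 1.23, 0.917 and 0.859 in Luxi animals, and 11.6% of the genes tested had a lower mean. In SOD3 the log2 difference was -0.23 ± 0.23 (SE, adjusted p = 0.604), with an interval from -0.78 to 0.32. The value also rested on different transcripts in different animals. Transcripts assembled from the reads, rather than those of the annotation, carried 45.9% of the FPKM in Shandong black animal 1 and 100% in animal 2, and none in the other 4 animals. With reference transcripts alone the log2 difference turned to 0.35, so no direction is given for SOD3. CCS, the chaperone that loads copper into SOD1, was the only gene on the list of superoxide handling. It had an FPKM of 0.393, 3.06 and 1.32 in Shandong black cattle and of 1.90, 4.82 and 4.58 in Luxi cattle, with a log2 difference of 0.95 ± 0.43 (SE, adjusted p = 0.252).

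Catalase, the haem enzyme of peroxisomes that splits hydrogen peroxide into water and oxygen, was lower in each Luxi animal than in any Shandong black animal. CAT (chr15:64975290-65011234 of ARS-UCD1.2, plus strand) had an FPKM of 74.7, 89.9 and 80.6 in Shandong black animals. In the Luxi animals it was 36.8, 41.8 and 47.3. The highest Luxi animal was well below the lowest Shandong black animal, and the spread within either breed was small, with means of 81.7 ± 7.67 and 42.0 ± 5.25 (SD, n = 3 each). The mean of Luxi cattle was 0.514 times that of Shandong black cattle. For CAT the log2 difference was -0.95 ± 0.23 (SE), with a 95% interval from -1.49 to -0.41 and an adjusted p of 0.0793, so CAT missed the threshold of the p-value and, narrowly, that of the size. Divided by size factors, CAT was called at -1.10 (adjusted p = 0.0428), as it was with TPM and with quantile normalization. Over the 15 alternatives the log2 difference ranged from -1.10 to -0.86 and the adjusted p from 0.0369 to 0.285.

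Ratios taken within an animal do not change when a library is multiplied by a constant, as with size factors. After the values had been seen, 7 such ratios were computed as a description. For each unit of SOD1 FPKM, CAT had 2.28, 2.19 and 2.19 units in Shandong black animals and 1.16, 1.35 and 1.29 in the Luxi animals. The ratio was thus nearly the same within each breed, at 2.22 ± 0.0497 and 1.27 ± 0.0919 (SD). Against SOD2 the ratio was 1.56, 2.0 and 1.78 in Shandong black cattle and 0.611, 0.999 and 0.977 in Luxi cattle. In both ratios the breeds did not overlap. They did overlap for GPX3 in units of GPX1 (0.366 to 0.835 in Shandong black cattle, 0.203 to 0.515 in Luxi cattle) and for PRDX1 in units of SOD1 (1.53 to 1.70 and 1.29 to 1.56). For GPX4 in units of GPX1 they did not, at 0.154 to 0.197 and 0.229 to 0.789.

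All 13 exons of CAT were lower in the 3 Luxi animals than in the 3 Shandong black animals. The annotation has a single CAT transcript of 2273 bases in these files, and it carried 100% of the FPKM in every animal. Exon coverage, divided by the aligned gigabases of the library, is on the same scale as FPKM. Between the breeds the ratio of mean coverage ranged from 0.413 in exon 13, which holds the end of the transcript, to 0.609 in exon 12. In exon 1 it was 0.436, with 67.0, 90.2 and 72.2 in Shandong black animals and 24.5, 36.5 and 39.0 in Luxi animals. In exon 7, among those with the deepest coverage, it was 0.501. The lower CAT values were therefore spread over the whole transcript and over each of the Luxi animals.

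**Figure D3:**
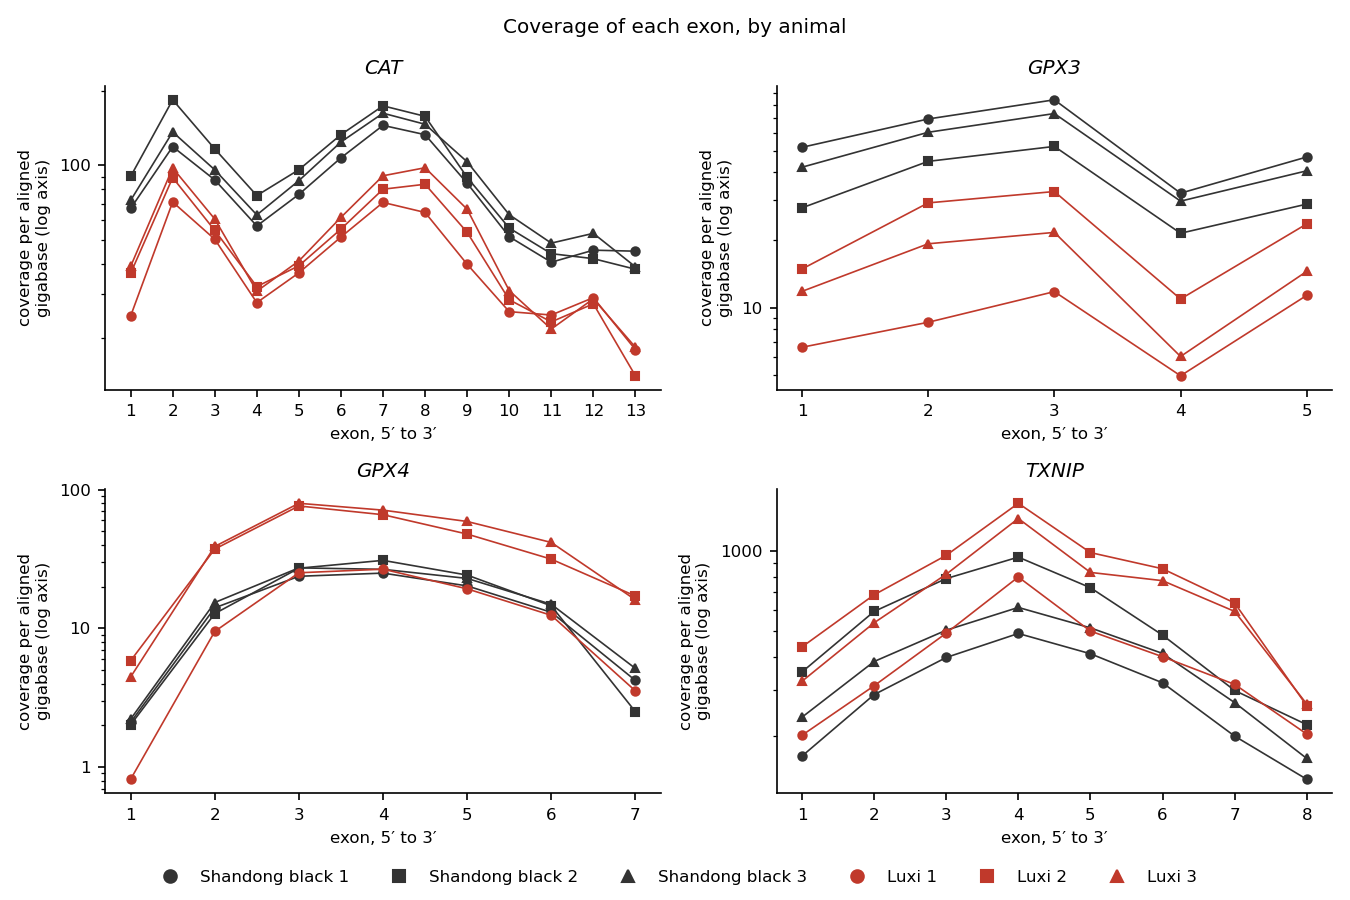
Coverage per aligned gigabase (y axis, log scale) over the exons (x axis, 5′ to 3′) of the leading transcript of CAT, GPX3, GPX4 and TXNIP, with 1 line per animal. For CAT and GPX3 all Luxi lines ran below all Shandong black lines at each exon, and for GPX4 the line of Luxi animal 1 ran with or below the Shandong black lines while Luxi animals 2 and 3 ran above them.

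The 3 glutathione peroxidases did not share a direction. GPX1, the enzyme of the cytosol and mitochondria that reduces hydrogen peroxide, had an FPKM of 62.1, 87.0 and 80.3 in Shandong black animals and of 51.4, 45.3 and 67.4 in Luxi animals. Overlap arose only in that Luxi animal 3 exceeded Shandong black animal 1. Its log2 difference was -0.48 ± 0.27 (SE, adjusted p = 0.339), with an interval from -1.11 to 0.15. With TPM, size factors or quantile normalization the breeds no longer overlapped, and the log2 difference was -0.61, -0.64 and -0.62, with no call.

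GPX3, the glutathione peroxidase that is secreted and makes up most of the activity in plasma, had the largest log2 difference of the 10 genes over all 6 animals, whereas without Luxi animal 1 that of GPX4 was larger. GPX3 (chr7:62284773-62292970, plus strand) had an FPKM of 51.9, 31.8 and 44.9 in Shandong black cattle and of 10.5, 23.3 and 14.9 in Luxi cattle. The breeds did not overlap, with a mean of 42.9 ± 10.2 against 16.2 ± 6.53 (SD), 2.64 times as high in Shandong black cattle. For GPX3 the log2 difference was -1.39 ± 0.33 (SE), its 95% interval ran from -2.17 to -0.61, and the adjusted p was 0.0766. Divided by size factors, GPX3 was called at -1.54 (adjusted p = 0.0471). Over the 15 alternatives the log2 difference ranged from -1.67 to -1.13 and the adjusted p from 0.0375 to 0.259. Luxi animal 1, the library that stood apart, was the lowest, and without it the log2 difference was -1.13 (adjusted p = 0.0653).

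The annotation has 2 GPX3 transcripts, of 5 exons and 1593 bases and of 4 exons and 1439 bases. The shorter one lacks the second exon (chr7:62289472-62289625). It carried 10.4, 8.91 and 11.3% of the GPX3 FPKM in Shandong black animals and 26.1, 12.2 and 16.9% in the Luxi animals, so that its share was higher in each Luxi animal. In FPKM the shorter transcript had 5.38, 2.83 and 5.09 in Shandong black cattle and 2.73, 2.84 and 2.51 in Luxi cattle, with overlap between Shandong black animal 2 and the Luxi animals. The longer one had 46.5, 29.0 and 39.8 in Shandong black cattle and 7.72, 20.5 and 12.4 in Luxi cattle, without overlap. These shares are StringTie's division of reads that both transcripts share, and they carry no test. Their means were 10.2 ± 1.23% and 18.4 ± 7.1% (SD), and Luxi animal 2 came close to the Shandong black animals. All 5 exons were lower in the Luxi animals, with ratios of mean coverage from 0.263 to 0.425. In the second exon the values were 69.1, 44.7 and 60.3 for Shandong black cattle and 8.60, 29.2 and 19.2 for Luxi cattle.

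GPX4, the enzyme that reduces hydroperoxides of membrane lipids and thereby holds back ferroptosis, had its highest values in Luxi animals 2 and 3. GPX4 (chr7:43588660-43591107, plus strand) had an FPKM of 12.3, 13.4 and 13.7 in Shandong black animals and of 11.7, 35.7 and 37.7 in Luxi animals. Luxi animal 1 lay below every Shandong black animal and Luxi animals 2 and 3 lay above, so the breeds overlapped in FPKM. In TPM, a scaling that moves Luxi animal 1 up, GPX4 had 33.8, 34.9 and 35.7 in Shandong black animals and 35.9, 80.4 and 79.9 in Luxi animals, and Luxi animal 1 lay just above all Shandong black animals, without overlap. On the log2 scale the difference was 0.90 ± 0.43 (SE, adjusted p = 0.270), with a 95% interval from -0.10 to 1.89. Without Luxi animal 1 it was 1.42 and GPX4 was called (adjusted p = 0.0147), in a fit in which 6.11% of all genes were called. Over the 15 alternatives its adjusted p ranged from 0.0147 to 0.4999. The log2 SD was 0.90 within Luxi cattle and 0.08 within Shandong black cattle, beside medians of 0.31 and 0.19 over all genes.

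A transcript of 7 exons carried 95 to 100% of the GPX4 FPKM in every animal, and the other 2 annotated transcripts carried the rest. Its 7 exons showed the same pattern as the gene. In exon 3 the coverage per gigabase was 23.7, 27.1 and 27.3 in Shandong black animals and 25.1, 76.2 and 79.6 in Luxi animals. The mean of Luxi animals 2 and 3 was 2.38 to 4.19 times the mean of Shandong black cattle over the exons, and Luxi animal 1 stood at 0.387 to 0.970 times that mean. Relative to GPX3 in the same animal, GPX4 was at 0.236, 0.420 and 0.305 in Shandong black cattle and at 1.12, 1.53 and 2.53 in Luxi cattle. GPX4 thus had more FPKM than GPX3 in every Luxi animal, animal 1 included, and less in every Shandong black animal.

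Peroxiredoxins reduce peroxides through a cysteine. PRDX1, of the cytosol and nucleus, had an FPKM of 55.9, 62.6 and 62.1 in Shandong black cattle and of 42.5, 48.4 and 47.3 in Luxi cattle. No overlap was seen and both breeds were tight, with means of 60.2 ± 3.75 and 46.1 ± 3.16 (SD). The log2 difference was -0.38 ± 0.22 (SE, adjusted p = 0.346), with an interval from -0.88 to 0.13. Size factors gave -0.53 (adjusted p = 0.193), and the adjusted p ranged from 0.193 to 0.627 over the 15 alternatives. Of its 6 exons 5 were lower in all Luxi animals, and the leading transcript carried 88.7 to 94.8% of the FPKM in every animal.

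PRDX6, which also acts on oxidised phospholipids and uses glutathione, varied more within the breeds than between them. Its FPKM was 29.5, 62.7 and 46.3 in Shandong black animals and 42.6, 57.9 and 60.2 in Luxi animals. The lowest and the highest value were both from Shandong black cattle. The log2 difference was 0.26 ± 0.33 (SE, adjusted p = 0.678), with an interval from -0.51 to 1.02, and without Shandong black animal 1 it was -0.02. For PRDX1 in units of PRDX6, the ratio was 1.89, 0.999 and 1.34 in Shandong black cattle and 0.996, 0.836 and 0.786 in Luxi cattle.

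TXNIP had an FPKM of 210, 372 and 267 in Shandong black animals and of 285, 502 and 445 in Luxi animals. It was among the highest expressed genes, above 99.2% of those tested. Luxi animals 2 and 3 were above every Shandong black animal, but Luxi animal 1 was below Shandong black animal 2. The log2 difference was 0.53 ± 0.38 (SE, adjusted p = 0.433), with an interval from -0.35 to 1.42. Without Luxi animal 1 the breeds did not overlap, and the log2 difference was 0.78 (adjusted p = 0.152, the lowest of the 15 alternatives, whose highest was 0.760). Its single transcript of 8 exons had ratios of mean coverage from 1.21 in exon 2 to 2.02 in exon 7, the only exon in which the breeds did not overlap. There the coverage per gigabase was 200, 298 and 268 in Shandong black animals and 314, 638 and 593 in Luxi animals.

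Other genes of the same pathways were taken from a list of 84 genes, of which 80 were found and 71 were tested. Only SRXN1 and MAFK were called, both lower in Luxi cattle. Their mean FPKM in Luxi cattle was 0.814 and 0.801, below the filter of 1 for testing. Both were thus tested only through their Shandong black values, and neither was called without that filter. The breeds did not overlap for 25 of the 71 (35.2%), with 12 higher and 13 lower in Luxi animals, beside 29.1% of all genes. The median log2 difference was -0.06, with 32 positive and 39 negative values, beside 0.13 for all genes. At an unadjusted limma p-value under 0.05 were 19 of the 71, beside 21.8% of all genes.

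SRXN1 encodes sulfiredoxin, which restores peroxiredoxins after peroxide has overoxidised them. Its FPKM was 6.09, 2.93 and 4.60 in Shandong black animals and 0.887, 0.525 and 1.03 in Luxi animals, without overlap. The log2 difference was -1.58 ± 0.25 (SE, adjusted p = 0.0292), and the call was lost with no filter on FPKM (adjusted p = 0.0799). It was also lost without Shandong black animal 1 (0.109), without Shandong black animal 3 (0.139), without Luxi animal 2 (0.0812) and without Luxi animal 3 (0.0754). The other tested genes of peroxiredoxins and their repair were 6, none of them called. SESN3, a sestrin, had a log2 difference of -0.71 ± 0.31 and SESN1 one of 0.35 ± 0.28 (SE), and the breeds overlapped for both.

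MAFK encodes a small Maf protein, a partner with which NRF2 or its competitor BACH1 binds DNA. It had an FPKM of 6.19, 2.49 and 5.28 in Shandong black animals and of 0.925, 1.07 and 0.412 in Luxi animals. The breeds did not overlap, and the log2 difference was -1.60 ± 0.30 (SE, adjusted p = 0.0429). The call was lost with no filter on FPKM (0.115), with a replicate block (0.0683) and with reference transcripts only (0.0834). It was also lost without Shandong black animal 1 (0.153), Shandong black animal 3 (0.177), Luxi animal 2 (0.0929) or Luxi animal 3 (0.121). Of the 11 tested genes of NRF2 control and its targets, the breeds did not overlap for 2 (18.2%, beside 29.1% of all genes). These were MAFK and FTL, the light chain of ferritin. FTL had an FPKM of 163, 116 and 165 in Shandong black cattle and of 48.2, 66.8 and 85.4 in Luxi cattle, with a log2 difference of -1.16 ± 0.31 (SE, adjusted p = 0.0966), and it was called with TPM and with quantile normalization. MAFF, another small Maf, had a log2 difference of -0.58 ± 0.44 (SE) with overlap, and of -0.13 with reference transcripts only. NFE2L2, the gene of NRF2 itself, which was named after its values were seen, overlapped at 13.1 to 21.6 in Shandong black cattle and 17.1 to 21.98 in Luxi cattle.

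**Figure D4:**
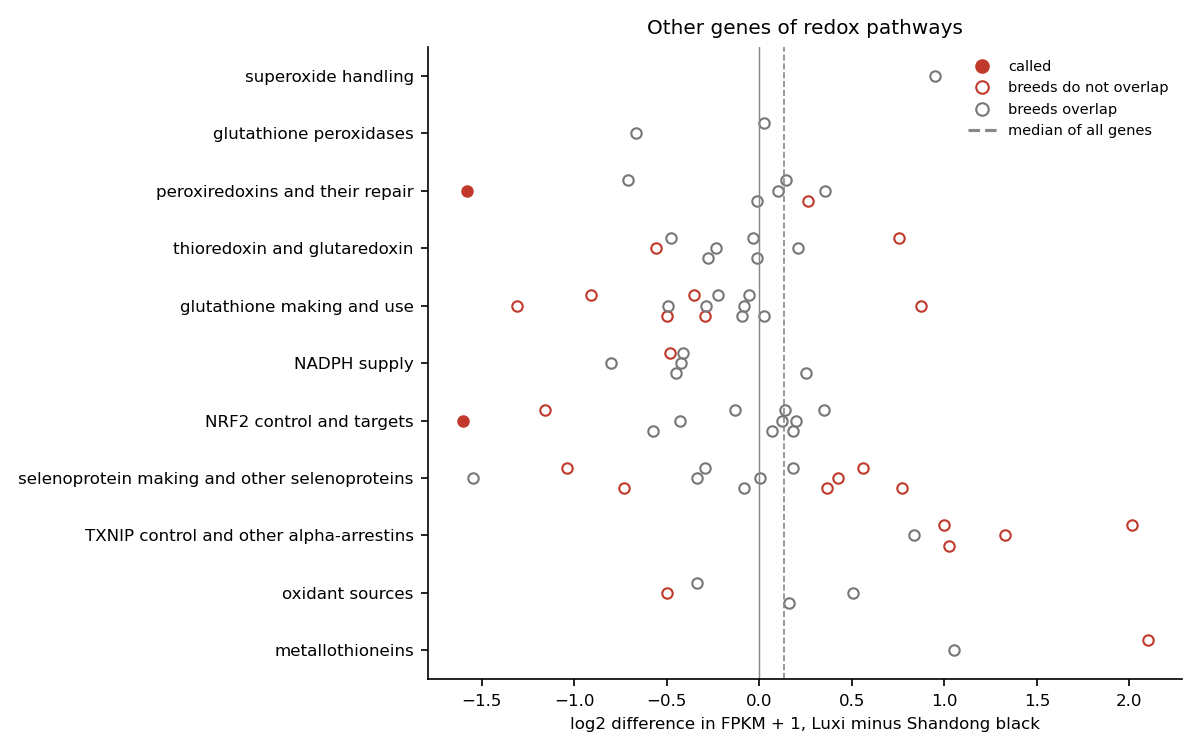
Log2 difference (x axis, Luxi minus Shandong black, FPKM + 1) of the 71 tested genes of the redox list, by role (y axis), with 1 circle per gene. Filled circles are the 2 called genes, red outlines are genes for which the breeds did not overlap, and the dashed line is the median of all genes tested. The 5 tested genes of TXNIP control and other alpha-arrestins all lay to the right of the line, and 11 of the 13 genes of glutathione making and use lay below 0.

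Genes that make glutathione or use it had negative log2 differences in 11 of 13 cases, with a median of -0.29 beside 0.13 for all genes, and none was called. The breeds did not overlap for 6 of the 13 (46.2%), beside 29.1% of all genes. Lower in Luxi animals without overlap were 5 of the 13, beside 9.13% of all genes. GSTM3, a glutathione transferase, had an FPKM of 43.8, 15.7 and 33.1 in Shandong black animals and of 12.0, 8.67 and 12.3 in Luxi animals (log2 difference -1.31 ± 0.38, SE, adjusted p = 0.108). GCLC, the catalytic subunit of the rate-limiting enzyme of glutathione synthesis, had 4.95, 2.68 and 3.998 in Shandong black animals and 1.12, 1.60 and 1.98 in Luxi animals (-0.91 ± 0.23, SE, adjusted p = 0.0855). Of the 2 exceptions, MGST2, a microsomal glutathione transferase, had 3.93 to 4.92 in Shandong black cattle and 6.68 to 11.1 in Luxi cattle (0.87 ± 0.21, SE, adjusted p = 0.0806). The other, GCLM, named after its values were seen, was at 0.02 ± 0.18 (SE, adjusted p = 0.951) with overlap.

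NADPH is supplied by 6 genes of the list, and none was called. Of these, 5 had negative log2 differences, beside 3663 of the 9781 genes tested. IDH2, the mitochondrial isocitrate dehydrogenase, had an FPKM of 133, 149 and 152 in Shandong black cattle and of 32.0, 139 and 124 in Luxi cattle. Luxi animal 1 stood far below the other 5 animals. ME1, the cytosolic malic enzyme, was the only gene of the 6 without overlap (16.7%, beside 29.1% of all genes). It stood at 4.57, 4.21 and 4.004 in Shandong black animals and 1.94, 3.63 and 2.91 in Luxi animals (-0.48 ± 0.20, SE, adjusted p = 0.224). IDH1 had a log2 difference of -0.45 ± 0.29 (SE).

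In the thioredoxin and glutaredoxin group none of the 8 tested genes was called, and 6 had negative values, beside 3663 of all 9781 genes. The breeds did not overlap for 2 of the 8 (25%, beside 29.1% of all genes). TXNRD1, the reductase that keeps cytosolic thioredoxin reduced, had an FPKM of 9.40, 7.54 and 7.995 in Shandong black cattle and of 5.19, 6.01 and 4.78 in Luxi cattle (-0.56 ± 0.18, SE, adjusted p = 0.132). Assembled transcripts carried part of this value, the reference share being as low as 49.0% in an animal, and with reference transcripts only the log2 difference was -0.26 (adjusted p = 0.556). GLRX5, which serves the making of iron-sulfur clusters in mitochondria, had 17.8, 25.8 and 18.9 in Shandong black animals and 39.6, 30.6 and 36.6 in Luxi animals (0.76 ± 0.24, SE, adjusted p = 0.128). GLRX2 had a log2 difference of -0.48 ± 0.28 (SE) with overlap.

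All 5 tested genes of TXNIP control and other alpha-arrestins had positive log2 differences, with a median of 1.03 beside 0.13 for all genes, of which 6118 of 9781 were positive. The breeds did not overlap for 4 of the 5, with the Luxi animals higher, beside 20% of all genes in that direction, and none was called. MLXIP had an FPKM of 5.98, 5.42 and 5.23 in Shandong black animals and of 12.5, 46.0 and 27.9 in Luxi animals (2.01 ± 0.42, SE, adjusted p = 0.0546). It was called with TPM, with quantile normalization and without Luxi animal 1. ARRDC4, a close relative of TXNIP among the alpha-arrestins, had 3.69, 2.83 and 3.29 in Shandong black animals and 3.997, 19.6 and 10.9 in Luxi animals (1.33 ± 0.47, SE, adjusted p = 0.159). ARRDC3 had 12.0, 16.3 and 11.7 in Shandong black animals and 28.3, 22.7 and 33.6 in Luxi animals (1.03 ± 0.24, SE, adjusted p = 0.0690).

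Selenoproteins and the genes that make them were split. Of 12 tested, 6 had positive and 6 had negative log2 differences, the breeds did not overlap for 6 (50%, beside 29.1% of all genes), and none was called. SELENOP, the secreted carrier of selenium, had an FPKM of 39.4, 34.7 and 37.8 in Shandong black animals and of 55.9, 66.8 and 71.1 in Luxi animals (0.77 ± 0.22, SE, adjusted p = 0.110). SELENOM, of the endoplasmic reticulum, had 13.0, 6.26 and 13.0 in Shandong black cattle and 3.26, 4.49 and 6.07 in Luxi cattle (-1.04 ± 0.32, SE, adjusted p = 0.126). MSRB1, which repairs oxidised methionine, is given as uncertain, with an FPKM of 242, 0.922 and 195 in Shandong black animals and of 1.97, 259 and 3.75 in Luxi animals. Its single reference transcript was either high or near 0 in animals of both breeds, and its log2 difference was -1.55 ± 2.27 (SE).

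The small groups gave no call. Of the remaining glutathione peroxidases GPX7 and GPX8 were tested, GPX8 at a log2 difference of -0.67 ± 0.30 (SE) and GPX7 at 0.03 ± 0.20, and the breeds overlapped for both. Among the sources of oxidants NOX4, an NADPH oxidase, had an FPKM of 1.37, 1.61 and 1.39 in Shandong black animals and of 1.31, 0.447 and 0.562 in Luxi animals (-0.50 ± 0.22, SE, adjusted p = 0.236). CYBA and CYBB, the subunits of the phagocyte oxidase, had log2 differences of 0.50 ± 0.27 and -0.34 ± 0.24 (SE) with overlap, and CYBB was at -0.81 with reference transcripts only. Metallothioneins bind zinc and copper, and MT2A had an FPKM of 2.95, 6.54 and 5.62 in Shandong black animals and of 11.2, 24.7 and 48.4 in Luxi animals. The breeds did not overlap, and the log2 difference of MT2A was 2.099 ± 0.51 (SE, adjusted p = 0.0770), with a call under the replicate block (0.0475) and without Luxi animal 1 (0.0213). MT1A stood at 0.171 to 5.06 in Luxi cattle and at no more than 0.381 in Shandong black cattle, with a log2 difference of 1.05 ± 0.53 (SE).

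The genes whose pattern over the 6 animals was most like that of CAT were EPHX1 and IPO7, with a root mean squared difference of 0.0906 and 0.106 between centred log2 values. For GPX3 they were SUOX, FGF6 and LRRC42, at 0.157, 0.185 and 0.195. SUOX, the sulfite oxidase of mitochondria, had an FPKM of 7.58, 3.97 and 5.88 in Shandong black animals and of 0.623, 1.83 and 1.5 in Luxi animals. For GPX4 they were CASQ1, SYPL2 and TMEM233, at 0.0948, 0.101 and 0.101. CASQ1, the calcium store protein of fast fibres, had 472, 536 and 478 in Shandong black animals and 476, 1375 and 1568 in Luxi animals, so that Luxi animal 1 was again at the level of Shandong black cattle.

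Markers of other cell types and of fibre types also differed between the animals, and their part in the results above was not tested. The 5 fat cell markers ADIPOQ, PLIN1, FABP4, CIDEC and LEP summed to 109 to 173 in Shandong black animals and to 2.04 to 17.3 in Luxi animals, with LEP listed at 0 in Luxi animal 1, and all 5 were lower without overlap, 4 of them called. Among all genes tested, 9.13% were lower in Luxi animals without overlap, and 2.57% were called. CAT, GPX3, PRDX1, SRXN1 and MAFK were also lower without overlap, as were 4 slow fibre markers and 2 macrophage markers. The 6 slow fibre markers summed to 25446 to 31637 in Shandong black animals and to 3165 to 13062 in Luxi animals, with 4 of 6 lower without overlap, MYL3 higher, and TNNI1 called. The 5 fast fibre markers summed to 658 to 1634 in Shandong black animals, to 1393 in Luxi animal 1, and to 10434 and 8753 in Luxi animals 2 and 3, the animals that also stood above the rest for GPX4. Not every marker followed that sum. TNNT3 and TNNI2 were higher in all Luxi animals without overlap, animal 1 included, beside 20% of all genes. TNNC2 had its lowest value, 129, in Luxi animal 1, and no fast fibre marker was called. In bulk muscle, fewer cells of a type and less RNA per cell cannot be told apart.

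Red blood cells are rich in the proteins of CAT and GPX1, and the part of blood in the RNA values of these genes was not tested. The red cell marker RNAs were at or near 0, where 4 of the 7 listed were found. HBA, HBA1, HBB and AHSP summed to 0.652 to 0.805 in Shandong black animals and to 0.584 to 1.65 in Luxi animals, and no single value exceeded 0.662. The 6 macrophage markers summed to 28.6 to 39.4 in Shandong black animals and to 12.4 to 29.9 in Luxi animals. The endothelial markers summed to 14.5 to 15.1 and to 19.1 to 57.7, the fibroblast markers to 85.6 to 134 and to 177 to 274, and the smooth muscle markers to 67.4 to 77.9 and to 40.2 to 165, in Shandong black and Luxi animals respectively. No gene of the macrophage, endothelial, fibroblast or smooth muscle lists was called. Without overlap, 2 macrophage markers (CSF1R and C1QA) were lower in Luxi animals, beside 9.13% of all genes. The 2 endothelial markers PECAM1 and CDH5 and the 2 fibroblast markers PDGFRA and COL1A1 were higher without overlap, beside 20% of all genes.

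**Figure D5:**
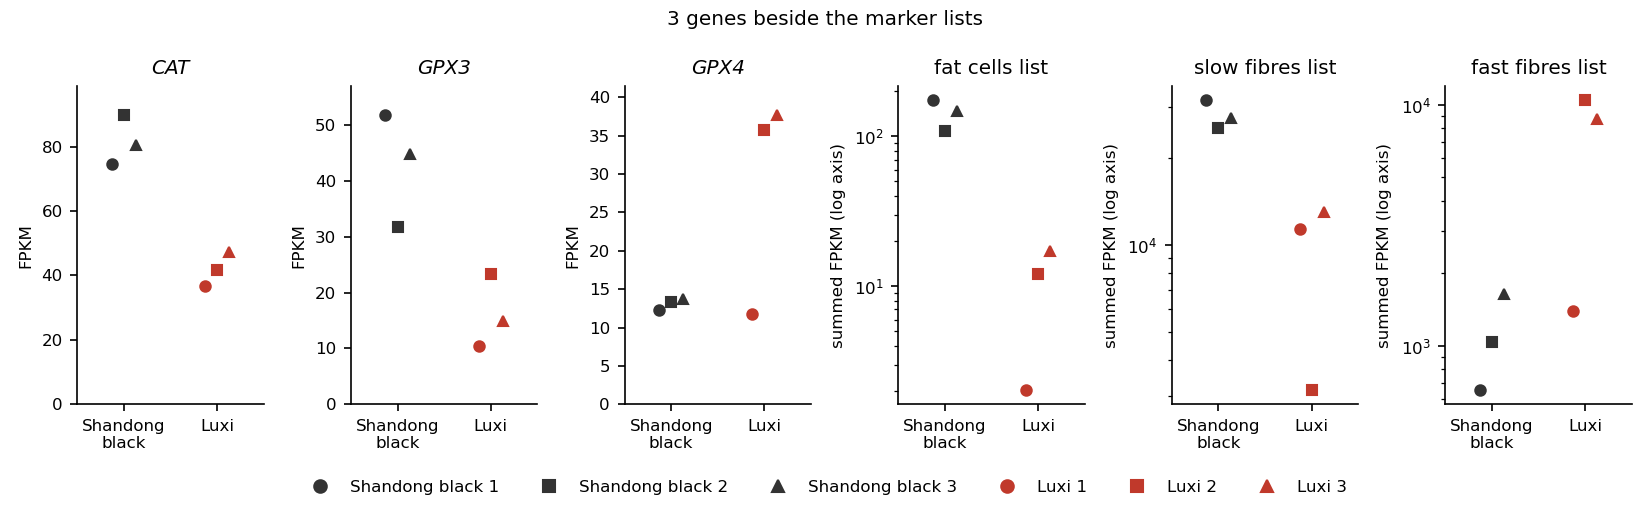
FPKM of CAT, GPX3 and GPX4 (y axes from 0) beside the summed FPKM of the fat cell, slow fibre and fast fibre markers (log y axes), with 1 symbol per animal in each breed (x axis). CAT and GPX3 were lower in all Luxi animals, as were the fat cell and slow fibre sums, and for GPX4 and the fast fibre sum Luxi animals 2 and 3 stood above the other 4 animals.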

How the data were processed

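One RNA-Seq library of longissimus dorsi muscle per animal was analysed, with the breed taken from the labels. Per the paper's Methods the authors used Fastp for trimming, HISAT for alignment to ARS-UCD1.2 and StringTie for assembly of each library. The Methods and the file headers name different StringTie versions (1.3.3b in the headers). The headers also give the NCBI annotation as guide and a stranded setting. The deposited coverage is the mean depth over a transcript, the deposited FPKM is that coverage relative to the aligned bases, and TPM as deposited is coverage multiplied by a library constant. Transcripts not listed in an animal counted as 0. How reads of near-identical copies were divided is not given in the sources used here.

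Gene FPKM was summed over reference transcripts and assembled ones on the same strand whose bases lay to 50% or more on the gene's exons. For the members no other same-strand assembled transcript touched an exon. The 9781 genes whose mean FPKM reached 1 in either breed were tested on log2(FPKM + 1) with limma 3.58.1 (R 4.3.3; lmFit, eBayes with trend) and Benjamini-Hochberg adjustment over all of them. Fold changes of low genes are understated on this scale. On simulated data for these 9781 genes, 62% of 200 genes changed by 1.5 (log2) were called, with 2 false calls, and 92% of 200 changed by 3, with 11. Cuffdiff, the authors' test, needs alignments and was not run. The files hold no read counts used here, so no counting error is given, and the number of animals limits the precision. The limma p-values set the breed difference against the spread between these animals, with the variance of each gene moderated by those of all genes. They do not separate breed from sex or source.

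The members and lists were chosen with earlier results of these data known. From the redox list the genes named are all called genes and up to 3 per role with the largest log2 difference, plus NFE2L2 and GCLM. XIST was also added. For the 3 members with the largest difference, the 3 genes of nearest pattern are named, except 1 for CAT that is not reported here. Alternatives were a pseudocount of 0.1, no filter, a mean FPKM of at least 5, TPM, size factors, quantile normalization, no trend, a replicate block, reference transcripts only, no fold threshold or a log2 fold change over 2, and leaving out each animal. Sequences were not used here.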

Additional observations from a re-analysis of the deposited data

How the results depend on the processing

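The count of members called was 0 with the deposited FPKM and rose to 2, CAT and GPX3, with TPM, with size factors and with quantile normalization. It ranged from 0 to 1 when each animal was left out in turn, the 1 being GPX4 without Luxi animal 1, and it was 0 under the other alternatives. Members without overlap between the breeds were 3, but 5 with TPM and with size factors, 4 with quantile normalization, and 4 to 5 when each animal was left out. Over all genes the share was 29.1%, and 25.0%, 28.5% and 28.8% in those fits and 34.0 to 50.4% with an animal left out. The 2 called genes of the redox list became 4 with TPM and with quantile normalization, 1 with reference transcripts only, and 0 with no filter, with a mean FPKM of at least 5, and with a log2 fold change over 2. Leaving out each animal gave 0 to 7. SOD2 (0.10) was at -0.0156 with TPM, -0.0512 with size factors and -0.0176 with quantile normalization, and at -0.0331 (without Luxi animal 1) to 0.223 when each animal was left out. SOD3 (-0.23) was at 0.35 with reference transcripts only, and PRDX6 (0.26) ranged from -0.0242 (without Shandong black animal 1) to 0.506 when each animal was left out. GPX7 (0.03) was at -0.0526, -0.0578 and -0.0684 with TPM, size factors and quantile normalization, and at -0.0728 to 0.187 when each animal was left out. The other 7 members kept their sign in all alternatives. The causes were not tested.

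Over all genes, 251 calls became 10 without Shandong black animal 1, 3 without Shandong black animal 3, 44 without Luxi animal 2, 87 without Luxi animal 3 and 593 without Luxi animal 1, and 63 with no filter, 134 with a mean FPKM of at least 5 and 163 with reference transcripts only. Of the 251 calls 151 were higher in Luxi cattle, and of the 264 with size factors 115 were. The same replicate number joins different animals. Same-numbered animals deviated from their breed means with correlations of 0.0745 to 0.0869, against -0.107 to 0.00834 for other numbers. Each animal thus correlated best with its own number, which is a weak hint from the data only. The deviations within a breed sum to 0, so these correlations are not independent, and what the numbers stand for was not tested. A replicate block gave 135 calls over all genes, 0 among the members and 2 in the redox list, MAFK (adjusted p = 0.0683) being replaced by MT2A (0.0475).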

Other observations

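Transcripts assembled on the strand opposite to a member were left out of its value. The authors assembled with a strand setting, whereas the labels name a TruSeq RNA kit without saying that it marks strand, so reads of the gene itself cannot be told apart from opposite-strand RNA in these values. At CAT they had a summed FPKM of 0.836, 1.73 and 0.831 in Shandong black animals and of 0.378, 0.476 and 0.424 in Luxi animals, 0.897 to 1.92% of the FPKM of CAT in the same animal. At GPX3, in a neighbourhood with 22 such transcripts over the 6 libraries, the sum was 1.32, 0.527 and 1.71 in Shandong black animals and 1.28, 1.18 and 1.45 in Luxi animals. The values at GPX3 overlapped between the breeds, unlike those of the gene, and were 1.66 to 12.2% of the FPKM of GPX3 in the same animal. At SOD3, which was barely expressed, 1 such transcript in Luxi animal 3 had an FPKM of 0.294, 34.2% of the gene. At TXNIP the opposite-strand sums were 0.304, 0.642 and 0.641 in Shandong black animals and 1.03, 1.06 and 1.05 in Luxi animals, at most 0.359% of the gene. No such transcript was listed at GPX4.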
